A study of Mus musculus with 4 samples.

Results

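The genes described here are 10 genes of the endoplasmic reticulum (ER) stress response in mouse neural stem/progenitor cells (NSPCs): the chaperones Hspa5, Hsp90b1 and Calr, the co-chaperones Sdf2l1 and Dnajb9, the oxidoreductases Pdia4 and Pdia6, the degradation factors Edem1 and Herpud1, and the transcription factor Xbp1. They were chosen by name, as a textbook set, with earlier results of these data known. They were read from 12 of the 55681 probes on the arrays, which gave 10 of the 20228 genes measured. NSPCs of embryos (embryonic day 13.5), labelled as Slc:ICR for both the wild-type and the Trp53-/- cells, were grown with EGF and FGF-basic and treated with 20 μM PJ34, an inhibitor of poly(ADP-ribose) polymerases, or left untreated as the control. The Trp53-/- cells lack p53 in both the PJ34 and the control culture. The paper obtained Trp53-heterozygous mice and genotyped the Trp53 allele, but describes no crosses. Each of 4 Agilent arrays compared PJ34-treated cells (labelled with Cy5) with control cells of the same genotype (labelled with Cy3), with independently prepared RNA on 2 arrays per genotype (n = 2), and the time in PJ34 before RNA was taken is not given in the sources used here. As no dyes were swapped, a preference of a probe for a dye cannot be told apart from an effect of PJ34 within a genotype.

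The ER folds and modifies proteins bound for secretion or for membranes. When unfolded proteins accumulate there, the chaperone BiP (Hspa5) is drawn away from the sensors IRE1, PERK and ATF6. IRE1 then splices Xbp1 mRNA, ATF6 is released as a transcription factor, and PERK slows translation and favours ATF4. Together XBP1 and ATF6 raise the genes of chaperones, of disulfide bond formation and of the disposal of misfolded proteins, and the 10 genes here are commonly used readouts of that program. Splicing of Xbp1 mRNA was not measured on these arrays.

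Of the probes on the arrays, between 21506 and 27157 were well above background in a channel, and no spot was saturated. The 10 genes were well above background in all 8 channels (4 arrays with 2 dyes each). All 10 markers of neural stem and progenitor cells were above background in every control channel, against 6 of 7 for neurons, 4 of 5 for astrocytes, 6 of 6 for oligodendrocytes, 1 of 4 for microglia, 1 of 3 for endothelium and 0 of 3 for fibroblasts. The control level of Trp53 was lower in Trp53-/- cells (log2 signals 7.56 and 7.82) than in wild-type cells (8.29 and 8.50), although it is not known here whether its probe lies in the deleted part. Trp53-/- replicate 2 stood apart, since the Y-linked genes Eif2s3y and Ddx3y were higher in its PJ34 channel (log2 ratios 4.22 and 3.12) and Xist was lower (-1.39). Its PJ34 and control cells thus differed in sex-linked genes. On this array an effect of PJ34 cannot be told apart from a difference in the sex of the embryos used. The part of this array's difference in the results was not tested, and calls that were lost without this array are marked below.

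Binding of XBP1 and ATF6 to the genes of this program is known to go through the ER stress response element (ERSE), which reads CCAAT, 9 bases of any kind and CCACG, and its variant ERSE-II, which reads ATTGG, 1 base of any kind and CCACG. The 300 bases around the start of each gene (250 before, 50 after, RefSeq, GRCm38.p6, matched by symbol for 10 of 10 genes) were searched for these letters on both strands. The ERSE was found in 4 of the 10 genes and in 39 of 32851 promoters of all genes (0.119%), and the ERSE-II in Herpud1 and in 12 of 32851 promoters (0.0365%). The stretches that hold a match are shown, on the strand of the gene, and 5 of the 10 genes hold neither element. The 10 genes were chosen as known members of the program that these elements serve. The counts of matches among them are therefore not an independent test. Capitals mark the match. In Hspa5 it lies on the strand of the gene from -65 to -47 relative to the start, in Pdia6 from -98 to -80, and in Herpud1 from -52 to -42. Calr carries it on the opposite strand from -162 to -144, and Hsp90b1 carries a match on each strand, from -212 to -194 and from -107 to -89.
Hspa5, chr2:34772010-34772058 (+): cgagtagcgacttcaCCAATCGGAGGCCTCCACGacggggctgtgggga
Hsp90b1, chr10:86705518-86705671 (-): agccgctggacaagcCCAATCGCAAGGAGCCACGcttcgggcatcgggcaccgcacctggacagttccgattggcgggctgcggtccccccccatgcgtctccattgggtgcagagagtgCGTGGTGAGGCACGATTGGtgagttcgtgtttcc
Calr, chr8:84847060-84847108 (-): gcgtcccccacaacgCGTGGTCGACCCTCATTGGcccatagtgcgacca
Pdia6, chr12:17266476-17266524 (+): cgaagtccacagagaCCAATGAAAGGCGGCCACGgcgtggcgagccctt
Herpud1, chr8:94386362-94386402 (+): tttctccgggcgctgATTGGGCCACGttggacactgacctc

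The letters CCACG by themselves, which overlap every ERSE and ERSE-II, were found in 9 of the 10 genes and in 32.8% of all promoters. The CCAAT box, which also overlaps both elements, was found in 9 of the 10 and in 37.4% of all promoters. The element that XBP1 binds, which reads TGACG followed directly by TGG, was in 0 of the 10 and in 0.676% of all promoters. Xbp1 had none of these letters in its window, and the window of Edem1 is placed on a start inside the annotated gene, whereas for the other 9 genes it is placed on the outermost annotated start. A match is a run of letters, not a site shown to be bound.

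In wild-type cells 6 of the 10 genes fell with PJ34 after loess normalization, 1 rose and 3 did not pass the test. Under median centring, described below, 0 fell, where 0.415% of all genes passed as lower in wild-type and 0.44% in Trp53-/- cells. The genes that fell after loess were Xbp1, Pdia6, Pdia4, Sdf2l1, Herpud1 and Hsp90b1, and Dnajb9 rose. The test was limma's moderated test with Storey's q, passed at p and q below 0.05, and 11.3% of all genes passed it as lower and 13.6% as higher in wild-type cells. In Trp53-/- cells 7 of the 10 fell (0 under median centring), 0 rose and 3 did not pass, against 10.5% of all genes lower and 12.8% higher, and without Trp53-/- replicate 2 the count was 3 of 10 against 3.41% of all genes lower. There the genes that fell were Xbp1, Pdia6, Hsp90b1, Herpud1, Calr, Sdf2l1 and Hspa5. Xbp1, Pdia6, Sdf2l1, Herpud1 and Hsp90b1 fell in both genotypes, 5 of 10 genes against 5.12% of all genes. As the 10 genes were chosen with earlier results of these data known, these counts are not an independent test. By Benjamini-Hochberg adjustment 7 of the 10 passed in each genotype. Markers of oligodendrocytes moved with the 10 genes in Trp53-/- cells, where 4 of 6 fell and the median was -0.33, against a median of 0.02 in wild-type cells. Without Trp53-/- replicate 2, 2 of the 6 fell in Trp53-/- cells. The part of these cells in the falls of the 10 genes was not tested.

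The falls were of moderate size. The median log2 ratio of PJ34 over control over the 10 genes was -0.40 in wild-type and -0.41 in Trp53-/- cells, against 0.03 over all genes in both. Array by array the median over the 10 genes was -0.27 and -0.46 in wild-type replicates 1 and 2, and -0.43 and -0.36 in Trp53-/- replicates 1 and 2. For 8 of the 10 genes the ratio was below 0 on all 4 arrays, as it was for 17.3% of all genes. None of the 10 passed the further limit of a more than 2-fold change, which 0.499% of all genes passed in wild-type and 0.361% in Trp53-/- cells. In RNA of a whole culture, fewer cells of a type and less RNA per cell cannot be told apart.

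The direction of these ratios depended on the normalization. The ratios given here were normalized by loess, which sets the usual ratio among probes of like brightness to 0. Under median centring each array was instead centred on the median of all its spots other than control and outlier spots. These include probes later dropped as not above background (27037 of 55681 were kept), so the median over the genes measured need not be 0. That median over all genes was 0.46 in wild-type and 0.63 in Trp53-/- cells. It grew with brightness, from 0.21 to 0.74 and from 0.22 to 1.00. The 10 genes were then all above 0, with medians of 0.24 and 0.51. Of them 0 passed as lower, while 4 passed as higher in wild-type and 6 in Trp53-/- cells. Of all genes 59.1% passed as higher and 0.415% as lower in wild-type, and 67.6% and 0.44% in Trp53-/- cells. Relative to the median of all genes the 10 genes were still low, by -0.22 and -0.12 on the log2 scale, with 7 of 10 below that median in each genotype. Every fall below is therefore a fall relative to genes of like brightness. Of the 10 genes, 5 lay between log2 intensities of 8 and 10, 1 between 10 and 12, and 4 over 12, and over 12 the test called 17.8% of all genes lower in wild-type and 14.01% in Trp53-/- cells. With the log ratios of the scanner software the 10 genes were again low, with medians of -0.45 and -0.43, and 3 of them, Xbp1, Pdia6 and Herpud1, passed as lower in each genotype. The calls lost with these ratios were those of Hsp90b1 (limma, q = 0.0695 in wild-type and 0.0555 in Trp53-/- cells) and Sdf2l1 (q = 0.0511 and 0.0612) in both genotypes, of Pdia4 in wild-type (q = 0.0709), and of Hspa5 and Calr in Trp53-/- cells (q = 0.0671 and 0.0982).

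**Figure D1:**
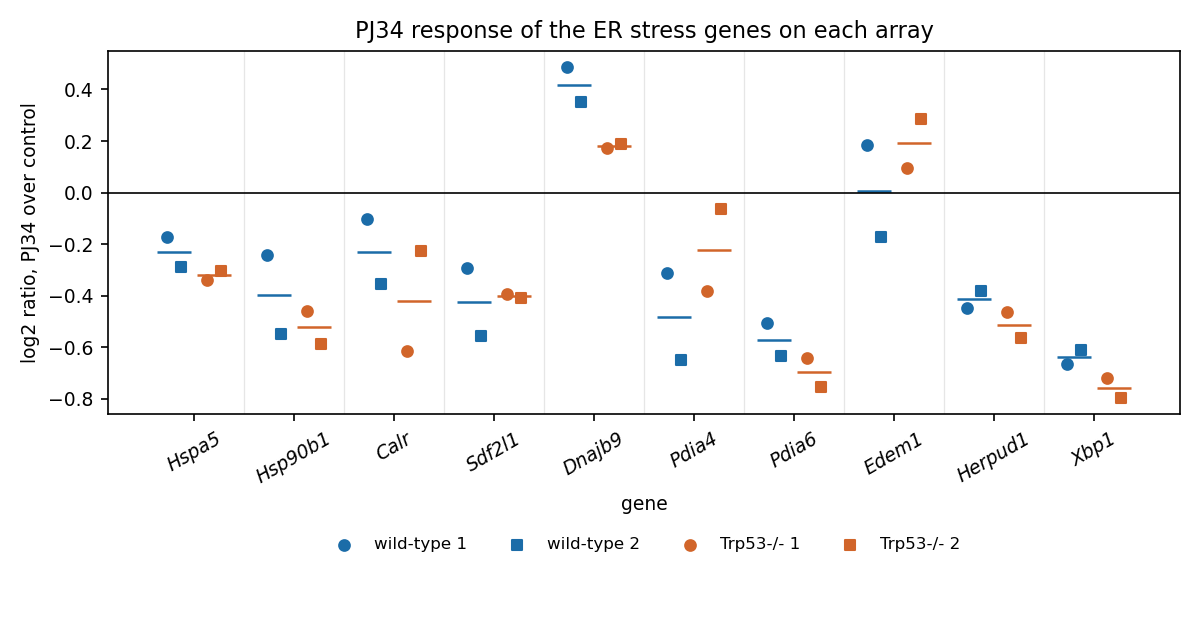
Log2 ratio of PJ34 over control (y axis) for each of the 10 genes (x axis) on each array. Blue marks wild-type and orange Trp53-/-, circles are replicate 1, squares replicate 2 and the bars their means. Xbp1, Pdia6 and Herpud1 lie at or below -0.38 on all 4 arrays, while Dnajb9 lies above 0 on all 4, and under median centring all 10 genes had means above 0.

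Hspa5 encodes BiP, the ATPase that binds unfolded chains in the ER and holds the stress sensors inactive. Its log2 ratios were -0.17 and -0.29 in wild-type replicates 1 and 2, and -0.34 and -0.30 in Trp53-/- replicates 1 and 2. All 4 arrays were low, and both Trp53-/- arrays were lower than both wild-type arrays. The wild-type mean was -0.23 ± 0.08 (SD, n = 2), which did not pass (limma, q = 0.0534), and the Trp53-/- mean of -0.32 ± 0.03 passed (q = 0.0178). The Trp53-/- call was lost without either array of that genotype (limma, q = 0.123 without replicate 1 and 0.135 without replicate 2), and the wild-type call was gained under some alternatives, among them a strict filter and the mean of a gene's probes (limma, q = 0.0350 and 0.0453).

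Hsp90b1 encodes GRP94, the HSP90 chaperone of the ER. Its ratios were -0.24 and -0.55 in wild-type and -0.46 and -0.59 in Trp53-/- cells. The wild-type arrays differed more from each other than the Trp53-/- arrays did, and the genotypes overlapped. Means of -0.40 ± 0.22 and -0.52 ± 0.09 (SD, n = 2) both passed (limma, q = 0.0119 and 0.00403). Without wild-type replicate 2 the wild-type call was lost (limma, q = 0.190), and without Trp53-/- replicate 2 so was the Trp53-/- call (q = 0.0688).

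Calr encodes calreticulin, a calcium-binding lectin that folds glycoproteins. It gave -0.10 and -0.35 in wild-type and -0.61 and -0.22 in Trp53-/- cells. The lowest value came from Trp53-/- replicate 1, and the other Trp53-/- array lay between the wild-type arrays. The wild-type mean of -0.23 ± 0.18 (SD, n = 2) did not pass (limma, q = 0.100). The Trp53-/- mean of -0.42 ± 0.28 passed (limma, q = 0.0160) but not without replicate 1 (q = 0.228).

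Sdf2l1 encodes a partner of BiP and of the co-chaperones that keep client proteins soluble. Its ratios were -0.29 and -0.56 in wild-type and -0.39 and -0.41 in Trp53-/- cells. The Trp53-/- values lay inside the wild-type range. Both means, -0.42 ± 0.19 and -0.40 ± 0.01 (SD, n = 2), passed (limma, q = 0.00706 and 0.0101), and the calls were lost without wild-type replicate 2 (q = 0.121) or without either Trp53-/- array (q = 0.0648 and 0.106).

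Dnajb9, also called ERdj4, encodes a J-domain co-chaperone that hands clients to BiP and restrains IRE1. It was the gene that rose in wild-type cells. Its ratios were 0.49 and 0.35 in wild-type and 0.17 and 0.19 in Trp53-/- cells, all above 0, and both wild-type values were above both Trp53-/- values. The wild-type mean of 0.42 ± 0.10 (SD, n = 2), an increase of 33.6%, passed (limma, q = 0.00545), while the Trp53-/- mean of 0.18 ± 0.01 did not (q = 0.0984). The rise rests on the brighter of its probes. The other probe gave -0.02 and 0.06 in wild-type and 0.26 and 0.06 in Trp53-/- cells, and passed in neither (limma, q = 0.466 and 0.146), and the mean of both probes did not pass in wild-type (0.22, q = 0.0506). Without wild-type replicate 1 the call was also lost (limma, q = 0.0728).

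Pdia4 and Pdia6 encode protein disulfide isomerases, which form and rearrange disulfide bonds. Pdia6, which is also known to limit signalling by IRE1, gave -0.51 and -0.64 in wild-type and -0.64 and -0.75 in Trp53-/- cells. All 4 arrays were low, with little spread within a genotype. Its means of -0.57 ± 0.09 and -0.70 ± 0.08 (SD, n = 2) passed (limma, q = 0.00121 and 0.000739), also without any single array, and the level decreased by 32.7% in wild-type and decreased by 38.3% in Trp53-/- cells. The dimmer probe of Pdia6 fell too, by 0.32 in wild-type and by 0.38 in Trp53-/- cells on the log2 scale (limma, q = 0.0208 and 0.0105).

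Pdia4 was more variable. It gave -0.31 and -0.65 in wild-type and -0.38 and -0.06 in Trp53-/- cells. Trp53-/- replicate 2, the array that stood apart by its sex-linked genes, was nearest to 0. The wild-type mean of -0.48 ± 0.24 (SD, n = 2) passed (limma, q = 0.00822) but not without replicate 2 (q = 0.111), and the Trp53-/- mean of -0.22 ± 0.23 did not pass (q = 0.106).

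Among the degradation factors, Herpud1 fell and Edem1 did not pass. Herpud1 encodes a membrane protein that assembles the ubiquitin ligase complex for misfolded ER proteins. It gave -0.45 and -0.38 in wild-type and -0.46 and -0.57 in Trp53-/- cells, low on every array. Its means of -0.41 ± 0.05 and -0.51 ± 0.07 (SD, n = 2) passed (limma, q = 0.00557 and 0.00252), but not without wild-type replicate 1 (q = 0.0521) or without Trp53-/- replicate 2 (q = 0.0510). Edem1, a lectin-like protein that extracts misfolded glycoproteins for disposal, gave 0.18 and -0.17 in wild-type and 0.09 and 0.29 in Trp53-/- cells. The wild-type arrays differed in sign, and neither mean, 0.01 ± 0.25 or 0.19 ± 0.14 (SD, n = 2), passed (limma, q = 0.499 and 0.128).

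Xbp1, the transcription factor activated by IRE1, had the lowest mean ratio of the 10 genes in both genotypes. On wild-type replicate 2, however, Pdia4 (-0.65) and Pdia6 (-0.64) lay below it. It gave -0.67 and -0.61 in wild-type and -0.72 and -0.80 in Trp53-/- cells. All 4 arrays were low, with the Trp53-/- arrays below the wild-type arrays. The means of -0.64 ± 0.04 and -0.76 ± 0.06 (SD, n = 2) passed (limma, q = 0.000575 and 0.000433), and the level decreased by 35.8% in wild-type and decreased by 40.8% in Trp53-/- cells. Of all genes, 1.61% had a lower ratio than Xbp1 in wild-type and 0.989% in Trp53-/- cells. The calls for Xbp1 held without any single array, under the scanner software's ratios and under every other alternative tried except median centring, where its ratios of 0.02 and 0.15 did not pass. In the order of the ratios Pdia6 came next in both genotypes, and its mean lay within the 95% confidence interval of Xbp1 in each (-0.84 to -0.44 and -0.95 to -0.56).

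**Figure D2:**
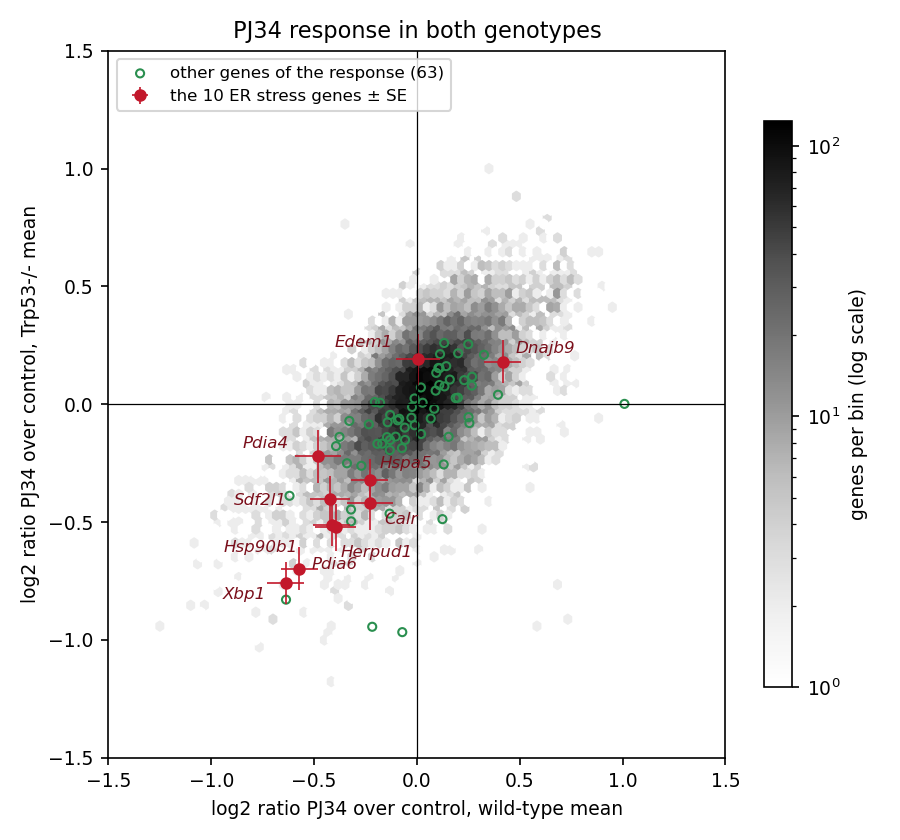
Mean log2 ratio of PJ34 over control in wild-type (x axis) against Trp53-/- cells (y axis) for all genes (grey, darker where more genes fall, 35 of 20228 genes lie beyond the axis limit of 1.5), the 63 other genes of the unfolded protein response (green circles) and the 10 genes (red, bars are SE from limma). Of the 10 genes, 8 lie in the lower left part, while Dnajb9 and Edem1 lie above 0 on both axes, and all 10 did so under median centring.

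In the test of the difference in response between genotypes 0 of the 10 genes passed (limma, p and q below 0.05), against 1.75% of all genes. Of the 10 genes 0 passed by Benjamini-Hochberg adjustment and 0 had an unadjusted p below 0.05. The difference, wild-type minus Trp53-/-, ran from -0.26 for Pdia4 to 0.24 for Dnajb9. Dnajb9 came nearest to passing (limma, difference 0.24 ± 0.13 SE, q = 0.322), with a 95% confidence interval from -0.05 to 0.52. That value is of its brighter probe, and its other probe went the other way (limma, difference -0.14, q = 0.533). Over the 10 genes the intervals reached from -0.62 to 0.55, so that the arrays do not show that the genotypes respond alike: differences of up to 0.62 on the log2 scale remain within the error. The arrays of the genotypes did not overlap for 5 of the 10 genes, while 45.1% of all genes did not overlap. The 5 were Hspa5, Pdia6, Herpud1, Xbp1 and Dnajb9 (by its brighter probe), each with the lower ratios in Trp53-/- cells. Between the genotypes' means the Pearson correlation over the 10 genes was 0.873 and the Spearman correlation 0.70, for values that share probes and dye orientation.

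**Figure D3:**
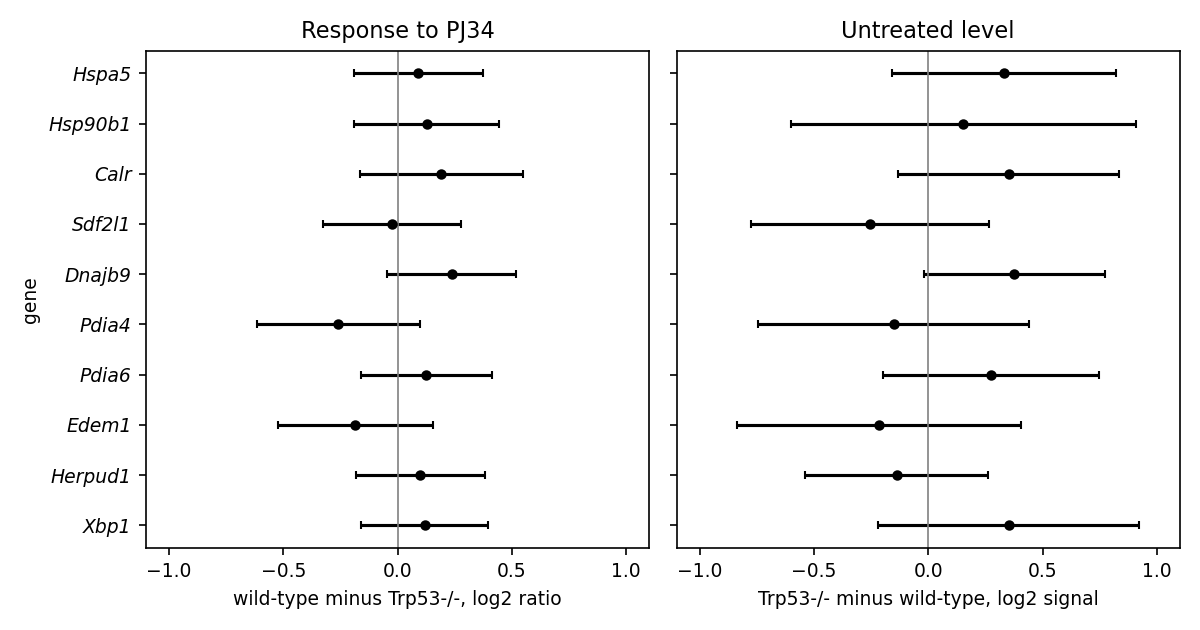
Differences between genotypes for the 10 genes, as points with 95% confidence intervals from limma: on the left the response to PJ34 (log2 ratio, wild-type minus Trp53-/-), on the right the untreated level (log2 signal, Trp53-/- minus wild-type). All 20 intervals include 0.

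Untreated levels were read from the control channel of each array after quantile normalization of the mean intensities. In control cells 0 of the 10 genes differed between genotypes (limma, p and q below 0.05), against 7.58% of all genes, 0 passed by Benjamini-Hochberg adjustment, and 0 had an unadjusted p below 0.05. The difference, Trp53-/- minus wild-type, ran from -0.26 for Sdf2l1 to 0.38 for Dnajb9, with 6 genes higher and 4 lower in Trp53-/- cells. The control level of Hspa5 was 14.52 and 14.10 in wild-type and 14.63 and 14.65 in Trp53-/- cells (log2 signal), a difference of 0.33 ± 0.20 SE (limma, q = 0.209). Xbp1 was at 11.65 and 12.24 in wild-type and 12.36 and 12.23 in Trp53-/- cells, a difference of 0.35 ± 0.23 SE (limma, q = 0.233). For both genes the wild-type arrays lay further apart than the Trp53-/- arrays, and those of Xbp1 overlapped.

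Dnajb9 came nearest to the threshold. It was at 8.48 and 8.37 in wild-type and 8.78 and 8.83 in Trp53-/- cells, which do not overlap (limma, difference 0.38 ± 0.16 SE, q = 0.130). The control levels did not overlap for Hspa5, Calr, Dnajb9 and Pdia6, which were higher in Trp53-/- cells, and for Herpud1, which was lower. Such a separation was found for 56.2% of all genes. The confidence intervals over the 10 genes reached from -0.83 to 0.92. The widest spread was that of Hsp90b1, at 14.24 and 13.33 in wild-type against 14.04 and 13.85 in Trp53-/- cells.

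The untreated comparison leaned on the wild-type arrays. Without wild-type replicate 1, 4 genes passed as higher in Trp53-/- cells (Hspa5, Hsp90b1, Dnajb9 and Pdia6) and 1 as lower (Sdf2l1), against 17.7% of all genes higher and 19.1% lower. Without wild-type replicate 2 the genes that passed were Calr and Xbp1 as higher and Edem1 and Pdia4 as lower, against 21.6% of all genes higher and 22.9% lower. No gene was in both sets, and in each of these fits the lone wild-type array is taken to vary like the Trp53-/- arrays. The summed control level of the 6 oligodendrocyte markers moved with genotype (log2 of the summed signal 11.09 and 11.77 in wild-type, 13.18 and 13.30 in Trp53-/- cells), with 3 of 6 higher in Trp53-/- cells. Of the 5 astrocyte markers 3 were higher there (Gfap by 2.38, S100b by 1.90 and Aqp4 by 0.66 on the log2 scale). Aldh1l1 (-0.56) and Gja1 (-0.10) went the other way and did not pass. Gfap was above background in 3 control channels only, and the summed level of the astrocyte markers overlapped between genotypes. Of the 10 stem and progenitor markers 1 passed, Msi1, as lower (limma, -0.96, q = 0.0286). Of the 7 neuron markers 2 were higher (Rbfox3 by 1.24 and Syt1 by 0.92) and 1, Snap25, was lower (-0.71). The summed level of the endothelium markers ran the other way (13.10 and 12.94 against 11.80 and 11.64), with 1 of the 2 measured lower. That sum follows Kdr alone (13.07 and 12.91 against 11.73 and 11.57). Pecam1 and Cdh5 were above background in 0 control channels. The part of other cell types in the levels of the 10 genes was not tested.

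**Figure D4:**
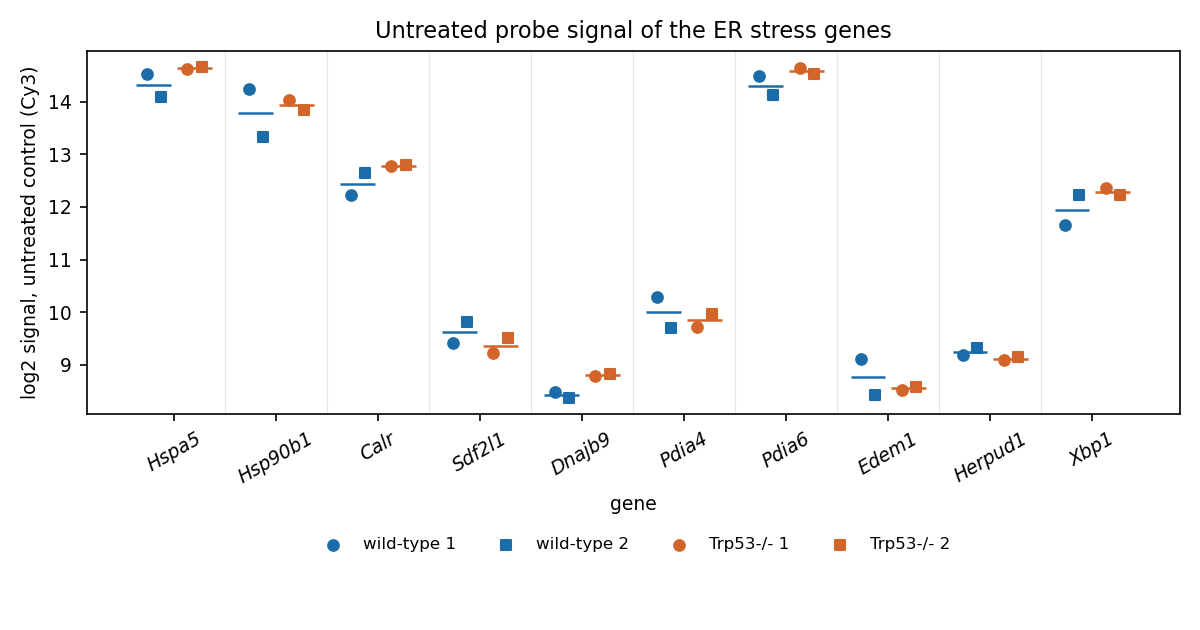
Log2 signal of the untreated control channel (y axis) for each of the 10 genes (x axis) on each array, after loess and quantile normalization. Blue marks wild-type and orange Trp53-/-, circles are replicate 1, squares replicate 2 and bars the means, and levels are comparable within a gene only. The wild-type arrays lie up to 0.91 apart (Hsp90b1), and no gene passed the test between genotypes.

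The rest of the unfolded protein response moved less uniformly. Of 64 other genes listed for it, 63 were measured. Of these, 8 rose and 10 fell in wild-type cells and 2 rose and 11 fell in Trp53-/- cells (limma, p and q below 0.05). Of all genes 13.6% rose and 11.3% fell in wild-type, and 12.8% rose and 10.5% fell in Trp53-/- cells. These shares also stand beside the counts by role below. The median ratios of the 63 genes were -0.01 and -0.06. These are counts after loess. Under median centring 44 of the 63 passed as higher in wild-type and 52 in Trp53-/- cells, and 0 as lower. Of all genes 59.1% and 67.6% passed as higher there, and 0.415% and 0.44% as lower. In wild-type cells the group of other genes with the lowest median was that of oxidoreductases and prolyl isomerases of the ER, with 5 of 11 lower in wild-type and 2 of 11 in Trp53-/- cells, 0 higher in either and medians of -0.19 and -0.17 (0.30 and 0.69 under median centring, which is -0.16 and 0.06 relative to the median of all genes). Among them Pdia5, a disulfide isomerase, gave -0.52 and -0.72 in wild-type and -0.38 and -0.39 in Trp53-/- cells, low on all 4 arrays (limma, wild-type mean -0.62, q = 0.000855). Fkbp11, a prolyl isomerase of secretory cells, gave -0.63 and -0.33 in wild-type, where every channel was well above background (limma, mean -0.48, q = 0.00437, and 0.0875 without wild-type replicate 1).

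Other chaperones and co-chaperones of the ER were split, with 2 of 14 higher and 2 of 14 lower in wild-type and 1 higher and 2 lower in Trp53-/- cells. Uggt1, which tags unfinished glycoproteins for another round of folding, was the gene that rose in Trp53-/- cells (limma, 0.26, q = 0.0355), a call that was lost without Trp53-/- replicate 2 (q = 0.254). Degradation factors other than Herpud1 and Edem1 showed 2 of 14 higher and 0 lower in wild-type and 0 higher and 1 lower in Trp53-/- cells. Syvn1, the ubiquitin ligase HRD1 with which HERPUD1 works, rose in wild-type cells while Herpud1 fell, at 0.55 and 0.24 in wild-type and -0.01 and 0.09 in Trp53-/- cells (limma, wild-type mean 0.39, q = 0.0121, and 0.208 without wild-type replicate 1). Of the 6 sensors and their partners 1 rose in wild-type cells, Atf6, at 0.39 and 0.26 (limma, mean 0.33, q = 0.0160, and 0.170 without wild-type replicate 1).

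In the branch of PERK and ATF4 the genotypes differed for some genes. Of its 10 genes 3 rose and 3 fell in wild-type, whereas 1 rose and 6 fell in Trp53-/- cells, with medians of 0.03 and -0.37 (0.37 and 0.34 under median centring, which is -0.09 and -0.29 relative to the median of all genes). Without Trp53-/- replicate 2, 0 rose and 3 fell in Trp53-/- cells. Asns, the asparagine synthetase induced by ATF4, fell in both, at -0.67 and -0.60 in wild-type and -0.80 and -0.85 in Trp53-/- cells (limma, means -0.64 and -0.83, q = 0.000580 and 0.000297). Cebpb, a transcription factor of stress responses, rose in Trp53-/- cells (limma, 0.25, q = 0.0402), but not without Trp53-/- replicate 2 (q = 0.230). Of the 10 genes of this branch 3 passed the test of the difference in response between genotypes, against 1.75% of all genes. Under median centring 0 of the 10 passed, against 0.405% of all genes higher and 0.158% lower. With the scanner software's ratios 0 of all genes passed, so the loss there is not particular to this branch. Values of the 3 genes without Trp53-/- replicate 2 are given with the flagged results below. Ddit3, which encodes the death-promoting factor CHOP, was 1.07 higher on the log2 scale in control Trp53-/- cells than in control wild-type cells (limma, q = 0.0249). That call was lost without Trp53-/- replicate 2, as was every call of untreated levels over all genes, so the loss is not particular to Ddit3. The difference in response of Ddit3, wild-type minus Trp53-/-, was 0.61 and did not pass (limma, q = 0.0530).

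**Figure D5:**
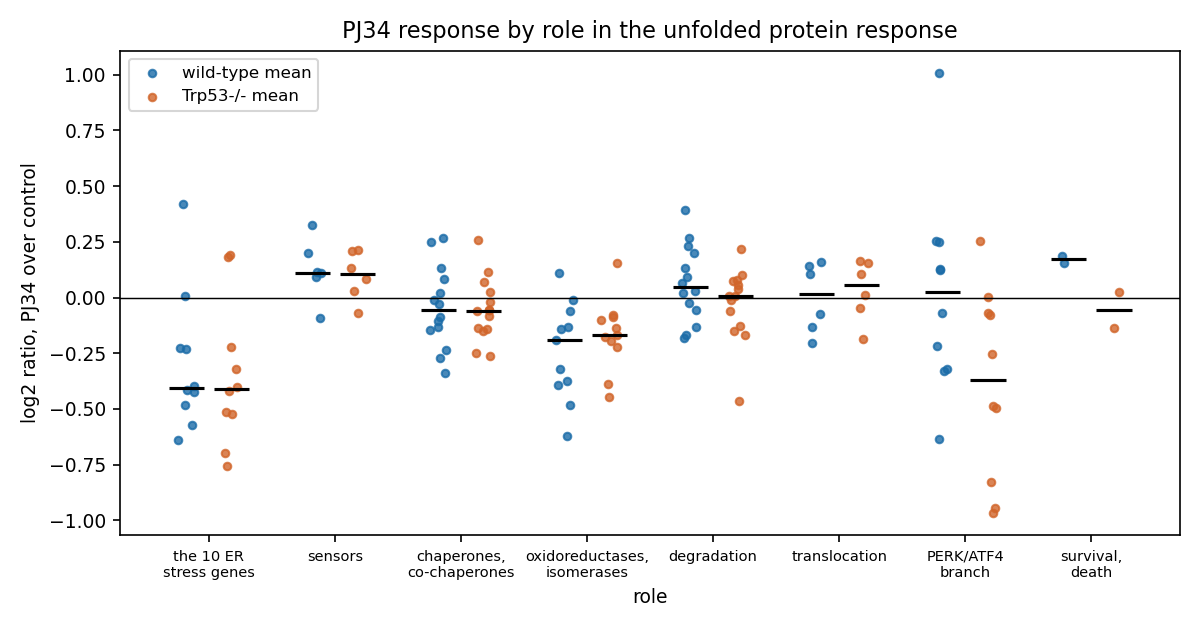
Mean log2 ratio of PJ34 over control (y axis) in wild-type (blue) and Trp53-/- cells (orange) for the 10 genes and for the 63 other measured genes of the unfolded protein response by role (x axis). Each point is a gene and black bars are medians, which are -0.40 and -0.41 for the 10 genes, -0.19 and -0.17 for other oxidoreductases and isomerases, and 0.03 and -0.37 for the branch of PERK and ATF4, all above 0 under median centring.

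Genes with an ERSE moved in both directions. Outside the 10 genes, 33 genes have an ERSE in the window searched and 13 of them were measured, with a median ratio of -0.02 in wild-type and -0.08 in Trp53-/- cells. In wild-type cells 3 of the 13 rose and 2 fell, and in Trp53-/- cells 2 rose and 2 fell (limma, p and q below 0.05). Of all genes 13.6% rose and 11.3% fell in wild-type, and 12.8% rose and 10.5% fell in Trp53-/- cells. Counts among 13 genes do not set them apart from these shares. Within the 10 genes the 4 with an ERSE were Hspa5, Hsp90b1, Calr and Pdia6, the stretches of which are shown above, and Xbp1, with none of the letters searched, had the lowest mean ratio. No match says only that these letters are not in the window.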

How the data were processed

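The authors hybridized PJ34-treated (Cy5) and control (Cy3) RNA to 4 arrays of 2 channels, 2 per genotype, and scanned them with Agilent Feature Extraction 10.7.3.1. The intensity values they deposited, the mean signal and the median local background of each spot, were corrected here with limma 3.58.1 (R 4.3.3; normexp, offset 50) and normalized by loess within each array, and by Aquantile for control levels. The log10 ratios they deposited, from the same software, served as an alternative. Their normalized table was left out because numbered columns cannot be tied to arrays. Control spots and the 228 to 276 outlier spots per array were left out. Probes well above background in a channel on both arrays of a genotype were kept (27037 of 55681), and a gene was read from its brightest probe. Probe positions are on mm9 and their exon annotation was not analysed here. Symbols came through RefSeq accessions (GRCm38.p6) for 26300 probes, otherwise from the files.

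A mean per genotype was fitted over all 4 arrays (2 residual degrees of freedom, 10.3 after moderation for ratios and 6.11 for control levels). Storey's q was computed over all 20228 genes. The number of arrays limits the precision, and the p-values measure the spread between these RNA preparations. Named genes were the 10 genes and, of each list, those with the highest and lowest values past the test in a comparison. The 10 genes, the lists and the tests were chosen with earlier results of these data known. The sample titles do not say whether arrays with the same replicate number were prepared together. Their deviations correlated weakly over genes (-0.18 for ratios and 0.08 for control levels), which cannot decide it. The main fit did not pair the arrays. Each array had its own slide and scan, so no slide block could be fitted.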

Additional observations from a re-analysis of the deposited data

Results flagged for a closer look

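Of the other genes of the unfolded protein response, 3 of 63 passed the test of the difference in response between genotypes, which 1.75% of all genes passed. Sesn2, an antioxidant stress gene that is also a known target of p53, gave log2 ratios of PJ34 over control of 1.24 and 0.78 in wild-type and -0.09 and 0.10 in Trp53-/- cells (limma, wild-type minus Trp53-/- 1.01, q = 0.0144). Trib3, a pseudokinase induced by ATF4 and CHOP, gave -0.11 and -0.03 in wild-type and -0.76 and -1.17 in Trp53-/- cells (limma, difference 0.90, q = 0.0173). Chac1, a glutathione-degrading enzyme of the same branch, gave -0.35 and -0.08 in wild-type and -0.99 and -0.89 in Trp53-/- cells (limma, difference 0.73, q = 0.0264). In control cells Trib3 and Chac1 were higher in Trp53-/- cells by 1.54 and 1.14 on the log2 scale (limma, q = 0.0189 and 0.0218), and Sesn2 was lower (-1.02, q = 0.0227). Without either Trp53-/- array every call of untreated levels over all genes was lost, these 3 included. That loss is therefore not particular to these genes. These control levels come from the control channels that also enter the ratios. Under median centring none of these differences passed (limma, Sesn2 0.84 with q = 0.156, Trib3 0.57 with q = 0.535 and Chac1 0.48 with q = 0.615). None passed with the scanner software's ratios (limma, q = 0.254, 0.258 and 0.258), where 0 of all genes passed this test. They were also lost with an offset of 16 (limma, q = 0.0959, 0.0915 and 0.115), where 0.183% of all genes passed as higher and 0.00989% as lower. Without Trp53-/- replicate 2, the array that stood apart, the differences of Trib3 and Chac1 did not pass (limma, 0.69 with q = 0.0694 and 0.78 with q = 0.0603), and that of Chac1 did not pass without Trp53-/- replicate 1 either (q = 0.0702).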

How the results depend on the processing

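For single genes, 118 of 140 values in wild-type, 118 of 140 in Trp53-/- cells, 140 of 140 for the difference in response and 131 of 140 for the untreated level kept their direction and their side of the threshold. Median centring turned the direction: the medians of the 10 genes became 0.24 in wild-type and 0.51 in Trp53-/- cells. In wild-type cells Hspa5 became 0.51, Hsp90b1 0.32, Calr 0.45, Sdf2l1 0.15, Pdia4 0.094, Pdia6 0.17, Herpud1 0.14 and Xbp1 0.018. In Trp53-/- cells Hspa5 became 0.74, Hsp90b1 0.49, Calr 0.53, Sdf2l1 0.33, Pdia4 0.56, Pdia6 0.35, Herpud1 0.19 and Xbp1 0.15. Under it 4 of the 10 genes passed as higher and 0 as lower in wild-type, and 6 and 0 in Trp53-/- cells, and 12036 genes passed in wild-type (5025 with loess), 13760 in Trp53-/- cells (4722) and 114 in the difference (355). Of all calls it put 99.3% and 99.4% on the higher side in wild-type and Trp53-/- cells, against 54.7% and 54.9% with loess. With the scanner software's ratios 3 of the 10 genes passed as lower in each genotype, and 2187, 1525 and 0 genes passed in wild-type, Trp53-/- cells and the difference. Taking the mean of a gene's probes left 0 of the 10 genes higher in wild-type. For the difference over all genes, no background correction gave 215, an offset of 16 gave 39 (94.9% of them higher, against 73.0%), and the replicate block gave 576. A crossed replicate block, added after seeing the data, gave 1130, and 8 of the 10 genes lower in each genotype (6 in wild-type and 7 in Trp53-/- cells without it). For the untreated level (1534 genes), no filter gave 973, Benjamini-Hochberg 598 and the replicate block 3227, and Benjamini-Hochberg gave 3099 in Trp53-/- cells. The replicate block by number changed no call of the 10 genes.

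Leaving out each array in turn gave 3 to 6 of the 10 genes lower and 0 to 1 higher in wild-type cells, 3 to 7 lower in Trp53-/- cells, and 0 to 4 higher and 0 to 2 lower for the untreated level. Over all genes it gave 2886 to 5063 in wild-type, 1318 to 5515 in Trp53-/- cells, 161 to 649 for the difference and 0 to 9006 for the untreated level, where the 0 came without either Trp53-/- array and 7453 and 9006 without wild-type replicates 1 and 2. The lone array of a genotype was taken to vary like the others. Other causes of these changes were not tested.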

Other observations

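The cytosolic and mitochondrial heat shock genes, a chaperone system outside the ER, moved in both directions. Of 14 listed, 13 were measured, and 1 rose and 3 fell in wild-type while 2 rose and 2 fell in Trp53-/- cells (limma, p and q below 0.05, after loess), with median log2 ratios of -0.10 and -0.11. Of all genes 13.6% rose and 11.3% fell in wild-type, and 12.8% rose and 10.5% fell in Trp53-/- cells. Under median centring 10 of the 13 passed as higher in wild-type and 11 in Trp53-/- cells, and 0 as lower. Of all genes 59.1% and 67.6% passed as higher there, and 0.415% and 0.44% as lower. Hspa1a, the inducible HSP70, shares near-identical sequence with Hspa1b, so its value is uncertain. On all 4 arrays its PJ34 signal cleared the background, but its control signal did so on 0 of 4, and it is the gene counted as rising in wild-type cells. Hsph1, its nucleotide exchange factor, gave -0.35 and -0.40 in wild-type cells (limma, mean -0.38, q = 0.00792, and 0.0682 without wild-type replicate 2). In Trp53-/- cells the highest of those that passed was Hspd1, the mitochondrial HSP60 (limma, 0.34, q = 0.0207, and 0.0609 without Trp53-/- replicate 2), and the lowest was Hspb8, a small heat shock protein (limma, -0.38, q = 0.0123, and 0.156 without Trp53-/- replicate 1).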
